A study of Schizosaccharomyces pombe with 2 samples.

Results

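Transcripts of 10 genes of pheromone signalling and mating were followed in a strain of the fission yeast Schizosaccharomyces pombe labelled pob3 and in a strain labelled wt. The genes were chosen by name from the 4868 gene names with a probe on the arrays, where each name is counted as 1 gene throughout. They are map2 (SPCC1795.06), mam1 (SPBC25B2.02C), sxa2 (SPAC1296.03C), mam2 (SPAC11H11.04), map3 (SPAC3F10.10C), gpa1 (SPBC24C6.06), rgs1 (SPAC22F3.12C), ste6 (SPCC1442.01), ste11 (SPBC32C12.02) and mei2 (SPAC27D7.03C), each on the arrays under its own symbol, with the systematic names taken from RefSeq. The protein Pob3 belongs to FACT, a complex that takes histones off DNA and puts them back as polymerases pass, and the series concerns FACT in silent chromatin at centromeres. RNA of the pob3 strain and of the wt strain was hybridised together to each of 2 arrays of spotted open reading frames, with the dyes swapped: replicate 1 carried pob3 RNA in Cy5 and wt RNA in Cy3, and replicate 2 the reverse. The labels give neither the pob3 allele nor the mating type, medium or growth phase of either strain. Nor do they tell if the RNA of each array was from a culture of its own, and p-values below then rest on an array-to-array spread that could be technical.

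Fission yeast cells of the P and M mating types mate when nutrients, above all nitrogen, run out. P cells secrete the peptide P-factor and M cells the lipid-modified M-factor, and each pheromone is read by a receptor of the opposite type that acts through a G protein alpha subunit, Ras1 and a MAP kinase cascade. The transcription factor Ste11 switches on most genes of this programme, and Mei2 then leads the zygote into meiosis. In cells growing on rich medium these genes are known to be kept low.

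The transcript level of none of the 10 genes was shown to differ between pob3 and wt. Of the 9 genes measured on both arrays, 0 passed an adjusted p of 0.05 (limma, Benjamini-Hochberg over 4766 genes), and 0 had an unadjusted p under 0.05, which 7.41% of all genes had. Over all genes 0.525% passed, with 0.441% higher and 0.0839% lower in pob3, so that a list of this length would hold hardly any called gene at that rate. The means of the 9 genes lay between -0.30 for map3 and 0.40 for ste11, on the scale of log2 ratios of pob3 over wt, and their adjusted p-values lay between 0.787 and 0.970. Missing the threshold is no evidence that a gene's levels were equal. The 95% intervals of limma (mean of 2 arrays, with the spread pooled over genes) covered ratios of 0.551 to 2.00 at most. All 9 included a ratio of 1, and all 9 stayed within 2-fold, that of ste11 only just with an upper end of 1.997. Intervals were computed for the main processing alone. On first spots alone the means of ste11 and mei2 were higher, each at a log2 ratio of 0.48, so the 2-fold bound may not hold under other settings. Each such interval covers its own gene and not all 9 at once. The tenth gene, mam1, gave a usable value on replicate 1 alone. In RNA of whole cultures, fewer cells of a type and less RNA per cell cannot be told apart.

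**Figure D1:**
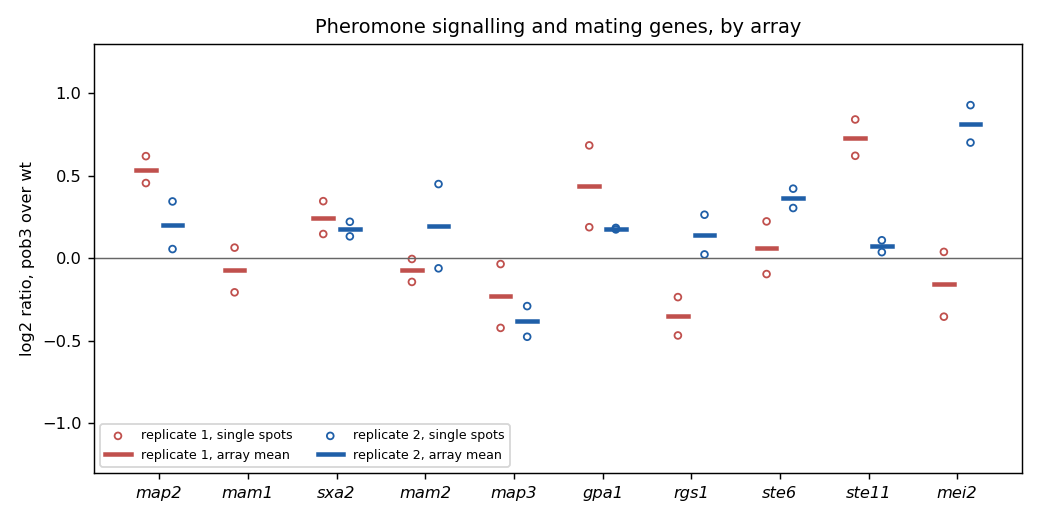
Log2 ratio of pob3 over wt for each of the 10 genes, with open circles for single spots and bars for array means (replicate 1 left, replicate 2 right). Array means lie between -0.38 for map3 and 0.82 for mei2, and mam1 has replicate 1 only.

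As a check of the labels, the pob3 transcript itself had log2 ratios of -1.40 and -1.12 on replicates 1 and 2 (mean -1.26 ± 0.20, SD, n = 2, limma adjusted p = 0.0612), lower in the pob3 strain on both arrays though short of the threshold. Across spot files, background was exceeded by 96.6% to 98.2% of gene spots in Cy3 and by 98.3% to 98.8% in Cy5. Above background meant over 2 SDs of the local background in Cy3 and over 1.5 times the local background in Cy5. Between 1.33% and 2.66% of empty and buffer spots passed that limit in Cy3 and between 5.50% and 7.02% in Cy5.

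The probes of these genes gave signal in both strains. Each gene had 4 spots, 2 on each array, and 38 of the 40 spots carried no quality mark. Of these 38, pob3 RNA lay above background in 38 and wt RNA in 36. The spots in which wt RNA failed were all of mam2. Gene spots as a whole passed the limits at 96.6% to 98.8% per file and dye, so detection is no trait of these genes. Since the limits differ by dye, such counts show detection and do not compare the strains. The levels below are signals as multiples of the local background, averaged over the 2 spots of an array. The Cy5 background was far brighter than that of Cy3, with medians per file of 544 to 598.5 against 8.5 to 16, so a multiple in Cy5 cannot be set against one in Cy3. The log2 ratio after loess normalisation is what compares the strains.

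**Figure D2:**
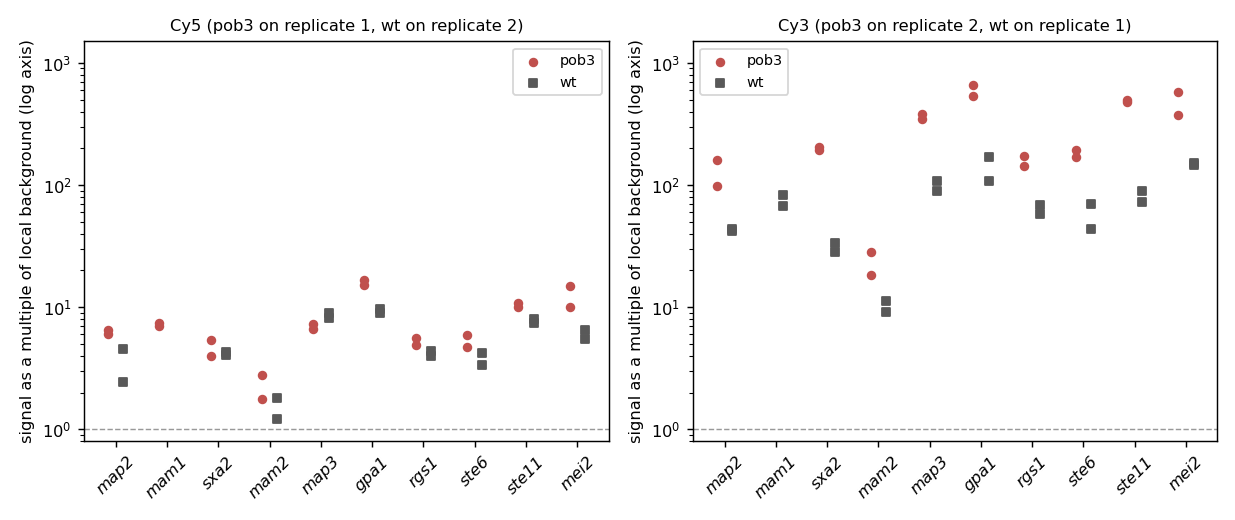
Signal of each kept spot as a multiple of its local background (log axis), in Cy5 on the left and in Cy3 on the right, with pob3 as red circles and wt as grey squares. Points of the 2 strains within a panel come from different arrays and are not corrected for brightness, so their heights show detection and no difference between strains; mam2 lies lowest in both panels, and wt mam2 reaches 1.23 times the background in Cy5.

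Among the genes that make, export or destroy the pheromones, map2 encodes the precursor of P-factor. Its pob3 signal was 6.27 times the background on replicate 1 and 129 times on replicate 2, and its wt signal was 42.9 and 3.51 times. The log2 ratios were 0.54 and 0.20 on replicates 1 and 2, above 0 on both arrays (mean 0.37 ± 0.24, SD, n = 2, limma adjusted p = 0.803). The interval ran from -0.19 to 0.93. With loess fitted within each print block, the mean was 0.05.

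The gene sxa2 encodes a serine carboxypeptidase with which M cells degrade P-factor. Its pob3 signal was 4.67 and 199 times the background on replicates 1 and 2, and its wt signal was 31.1 and 4.17 times. Its log2 ratios of 0.25 and 0.18 lay closer together than those of any other of the 9 genes, 0.07 apart. The mean was 0.21 ± 0.05 (SD, n = 2), with an interval from -0.34 to 0.77 (limma adjusted p = 0.910). Agreement of 2 arrays in a small ratio did not carry it past the test, which uses the spread pooled over all genes.

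The gene mam1 encodes the ABC transporter that exports M-factor. On replicate 1 its signal was 7.25 times the background in pob3 and 75.3 times in wt, and the log2 ratio was -0.07. On replicate 2 both of its spots stood at the scanner maximum of 65535 in both channels and carried a quality mark of 1, whose meaning the labels and headers leave unstated. Replicate 2 carried this mark on 40 and 42 spots of its spot files, 9 of them in each file within the block of mam1, 1 of 32 print blocks. Replicate 1 carried it on 1 spot. With the marked spots kept, mam1 had log2 ratios of -0.07 and 0.10 (mean 0.02, limma adjusted p = 0.994), but a ratio of saturated channels holds no measure of either strain.

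Neither receptor gene passed the test. The gene map3 encodes the M-factor receptor, which P cells carry. Its pob3 signal was 6.93 and 366 times the background on replicates 1 and 2, and its wt signal was 98.6 and 8.62 times. With log2 ratios of -0.23 and -0.38, it was the only one of the 9 genes below 0 on both arrays (mean -0.30 ± 0.11, SD, n = 2, limma adjusted p = 0.834). Its interval, from -0.86 to 0.25, reached lowest of all. With loess fitted within print blocks, the mean was -0.20.

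The gene mam2 encodes the P-factor receptor of M cells, and its probe was the dimmest of these against its background. The pob3 signal was 2.29 and 23.3 times the background on replicates 1 and 2. The wt signal was 10.2 and 1.51 times, and it failed the limit in 1 of 2 spots on each array. The log2 ratios of -0.07 and 0.20 differed in sign (mean 0.06 ± 0.19, SD, n = 2, limma adjusted p = 0.970). The upper value came from 1 spot in which wt RNA was below the limit (0.45, against -0.06 in its duplicate). On spots with both channels above background the mean was -0.03, so that no direction can be given for mam2.

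Of the signalling genes inside the cell, gpa1 encodes the G protein alpha subunit that both receptors share. Its pob3 signal was 15.9 and 600.1 times the background on replicates 1 and 2, and its wt signal was 138 and 9.29 times. Its log2 ratios of 0.44 and 0.18 were both above 0 (mean 0.31 ± 0.18, SD, n = 2, limma adjusted p = 0.834). Its spots on replicate 1 differed more than its arrays did, with 0.19 and 0.69, and on first spots alone the mean was 0.18.

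Rgs1 is the regulator of G protein signalling that damps Gpa1. The rgs1 signal was 5.28 and 159 times the background in pob3 and 63.2 and 4.15 times in wt on replicates 1 and 2. Its log2 ratios of -0.35 and 0.14 lay on opposite sides of 0 (mean -0.10 ± 0.35, SD, n = 2, limma adjusted p = 0.942). Thus gpa1 and its negative regulator showed no shared direction on replicate 1, and both were above 0 on replicate 2. With loess fitted within print blocks, the rgs1 mean was -0.31.

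The gene ste6 encodes the guanine nucleotide exchange factor that activates Ras1 in mating. Its signal was 5.32 and 183 times the background in pob3 and 56.5 and 3.81 times in wt on replicates 1 and 2. Its log2 ratios were 0.06 and 0.36 (mean 0.21 ± 0.21, SD, n = 2, limma adjusted p = 0.910). With loess fitted within print blocks, the mean turned to -0.14.

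The transcription factor gene ste11 had the highest mean of the 9 genes. Its signal was 10.4 and 485 times the background in pob3 and 80.7 and 7.73 times in wt on replicates 1 and 2. Almost all of the ratio came from replicate 1, with log2 ratios of 0.73 and 0.07 (mean 0.40 ± 0.47, SD, n = 2, limma adjusted p = 0.787). The interval ran from -0.19 to 1.00. A mean at least this far from 0 was seen in 19.9% of the 4766 genes, and the smallest among the genes past the threshold was 1.39.

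The gene mei2 encodes the RNA-binding protein that starts and carries meiosis, and its arrays differed most. Its signal was 12.5 and 477 times the background in pob3 and 150 and 6.0 times in wt on replicates 1 and 2. The log2 ratio was -0.16 on replicate 1 and 0.82 on replicate 2 (mean 0.33 ± 0.69, SD, n = 2, limma adjusted p = 0.852). The spots of mei2 lay at 0.04 and -0.35 on replicate 1 and at 0.93 and 0.70 on replicate 2, so the difference was between arrays. The mean was 0.205 with loess fitted within print blocks and 0.17 on second spots alone. A gap of this size or larger was seen in 9.17% of all genes. With 1 array in each dye orientation, a difference between arrays and a difference between dyes cannot be told apart.

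**Figure D3:**
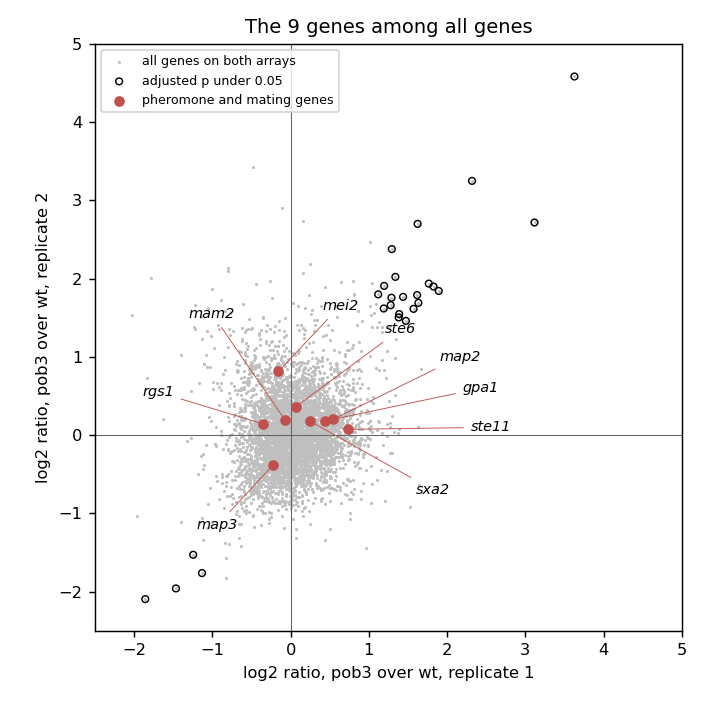
Log2 ratio of pob3 over wt on replicate 1 (x) against replicate 2 (y) for the 4766 genes measured on both arrays (grey), with the 25 genes past the adjusted p of 0.05 circled and the 9 pheromone and mating genes in red. The 9 genes lie within the cloud of all genes, and mei2 stands highest of them on replicate 2 at 0.82.

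Taken as a list, 7 of the 9 genes had a mean above 0, and the median of their means was 0.21. The 7 include mam2, whose sign changed with the settings, and with loess fitted within print blocks 6 of 9 were above 0 and the median was 0.06. Over all genes the median was 0.02, and 52.0% had a mean above 0. The medians on the single arrays were 0.06 and 0.18 for the 9 genes and -0.002 and 0.01 for all genes. The sign was the same on both arrays for 6 of the 9, which were map2, sxa2, gpa1, ste6 and ste11 above 0 and map3 below it, against 52.6% of all genes. None of the 9 was over 2-fold on both arrays in 1 direction, the threshold named in the series' design text, against 0.986% of all genes. The median gap between arrays was 0.30 for the 9 genes and 0.37 for all genes. Arrays that differ by this much, 2 in number, limit the precision of every value here.

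**Figure D4:**
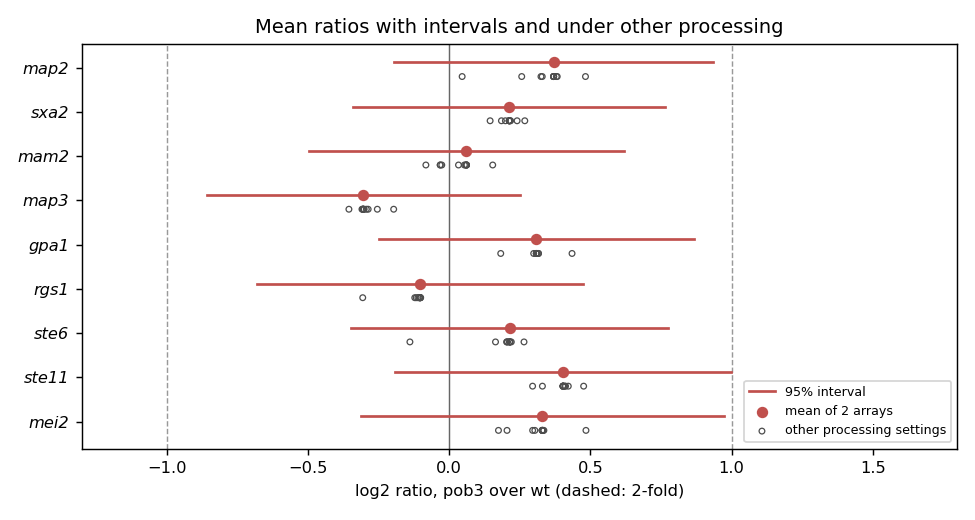
Mean log2 ratio of pob3 over wt with its 95% limma interval (red) for the 9 genes measured on both arrays, and the means under 12 other processing settings (open circles). All intervals cross 0 and end inside the dashed lines of 2-fold, and the open circles of mam2 and ste6 fall on both sides of 0.

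Probes for genes of P cells and of M cells gave signal above background in both strains, as did nearly all gene probes. Of the genes that only M cells are known to express, mam1, mam2, sxa2 and the M agglutinin gene mam3 had probes, together with probes named matmc and matmc-x2. The name matmc fits both the expressed and the silent copy of an M mating-type gene, which share sequence, so those probes may report either. Over these 6 M probes pob3 RNA lay above background in 22 and wt RNA in 20 of 22 unmarked spots. Over the 3 P probes, for map2, map3 and the P agglutinin gene map4, it did so in 12 spots for pob3 and in 11 of 12 for wt. Gene spots as a whole passed these limits at 96.6% to 98.8% per file and dye, so such detection is no trait of these markers. With limits that differ by dye, these counts do not compare the strains.

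None of the M or P probes measured on both arrays passed the test. The M agglutinin gene mam3 had log2 ratios of -0.05 and -0.46 on replicates 1 and 2 (mean -0.25 ± 0.29, SD, n = 2, limma adjusted p = 0.883). For map4, of the P agglutinin, they were 0.04 and 0.14 (adjusted p = 0.945 in limma). The probes matmc and matmc-x2 had means of 0.06 and 0.16, with adjusted p-values of 0.976 and 0.931 in limma, and each changed sign between arrays. Summed over the M probes with unmarked spots, 6 on replicate 1 and, without mam1, 5 on replicate 2, signals were 55.5 and 1956 times the background in pob3 and 588 and 48.2 times in wt. Such sums rest mostly on the brightest probes, and mam3 gave 871 of the 1956, so they show detection and compare nothing. Over the P probes the sums were 15.3 and 620 times in pob3 and 152 and 15.5 times in wt. The mating type of neither strain was inferred from these values.

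Around the 10 genes, 81 further genes of mating, of its nutrient control and of nitrogen starvation were listed, of which 65 had a matched probe and 64 were measured on both arrays. Of these 64 genes 0 passed the test as higher and 0 as lower in pob3. Over all genes 0.441% and 0.0839% did, so a list of this length would hold hardly any called gene at that rate. The same holds for each list below, and missing the threshold is no evidence of equal levels. An unadjusted p under 0.05 (limma) was found in 3 of the 64, against 7.41% of all genes, a count too small to tell the shares apart. The median mean of the 64 was 0.12, and 59.4% had a mean above 0. The lists overlap, and the counts below include the members among the 10 genes. The list medians are small beside the differences between arrays and settings. Each is given with its value on replicates 1 and 2 and with loess fitted within print blocks. For the M list, with 3 genes measured, the median was 0.06 (-0.05 and 0.18 on the arrays, 0.06 within print blocks). For the P list, also with 3, it was 0.09 (0.04 and 0.14 on the arrays, 0.05 within print blocks). That P median was 0.36 on first spots alone and -0.18 on second spots alone.

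In the list from receptors to the MAP kinase cascade, 17 of 17 genes were measured and 0 passed, with a median of 0.21 (-0.04 and 0.18 on the arrays, 0.06 within print blocks). The MAP kinase kinase gene byr1 had the smallest p among them, with log2 ratios of 0.60 and 0.80 on replicates 1 and 2 (mean 0.70 ± 0.14, SD, n = 2, unadjusted p = 0.0185, limma adjusted p = 0.518). Next came ste7 with 1.01 and 0.19, and scd1, of an exchange factor for Cdc42, with -0.17 and 0.93. The arrays differed by more than the mean for both of these.

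In the list for pheromone maturation and export, 6 of 7 genes were measured and 0 passed, with a median of 0.21 (0.11 and 0.10 on the arrays, 0.08 within print blocks). The methyltransferase gene mam4, of M-factor maturation, lay below 0 on both arrays at -0.26 and -0.44 (mean -0.35 ± 0.13, SD, n = 2, limma adjusted p = 0.816). The protease gene krp1, whose product cuts the P-factor precursor, had 0.62 and 0.03, and cwp1 had 0.66 and -0.04. In the list for cell and nuclear fusion, 8 of 10 genes were measured and 0 passed, with a median of 0.16 (0.06 and 0.13 on the arrays, 0.01 within print blocks). The formin gene fus1 had 0.08 and 0.48, and dni2 had 0.86 and -0.23, so that their arrays differed by more than their means.

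In the list for control of ste11, 26 of 32 genes were measured and 0 passed, with a median of -0.05 (0.13 and -0.20 on the arrays, -0.04 within print blocks). The kinase gene tor1 was the lowest, at -0.31 and -0.83 on replicates 1 and 2 (mean -0.57 ± 0.37, SD, n = 2, limma adjusted p = 0.682). The gene map1, for a transcription factor of P-specific genes, had 0.65 and 0.25 (mean 0.45). In the mei2 list, 5 of 6 genes were measured and 0 passed, with a median of 0.22 (-0.16 and 0.003 on the arrays, 0.06 within print blocks). There mmi1, whose product marks meiotic transcripts for removal in growing cells, had -0.27 and 1.36, and red1, which acts with it, had -0.58 and -0.21.

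The highest values came from the nitrogen starvation list, in which 11 of 11 genes were measured and 0 passed, with a median of 0.23 (0.41 and 0.16 on the arrays, 0.07 within print blocks). The gene isp7, of an oxygenase family, had 1.01 on both arrays (unadjusted p = 0.0020, limma adjusted p = 0.159). Of the 73 listed genes measured, it was the only 1 over 2-fold on both. Over all genes 0.986% were, so a count of 1 is near that share. Next came fnx1, of a vacuolar amino acid transporter family, with 0.78 and 1.12 (mean 0.95 ± 0.24, SD, n = 2, limma adjusted p = 0.241), and the amino acid permease gene isp5 with 0.50 and 0.43 (adjusted p = 0.752 in limma).

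**Figure D5:**
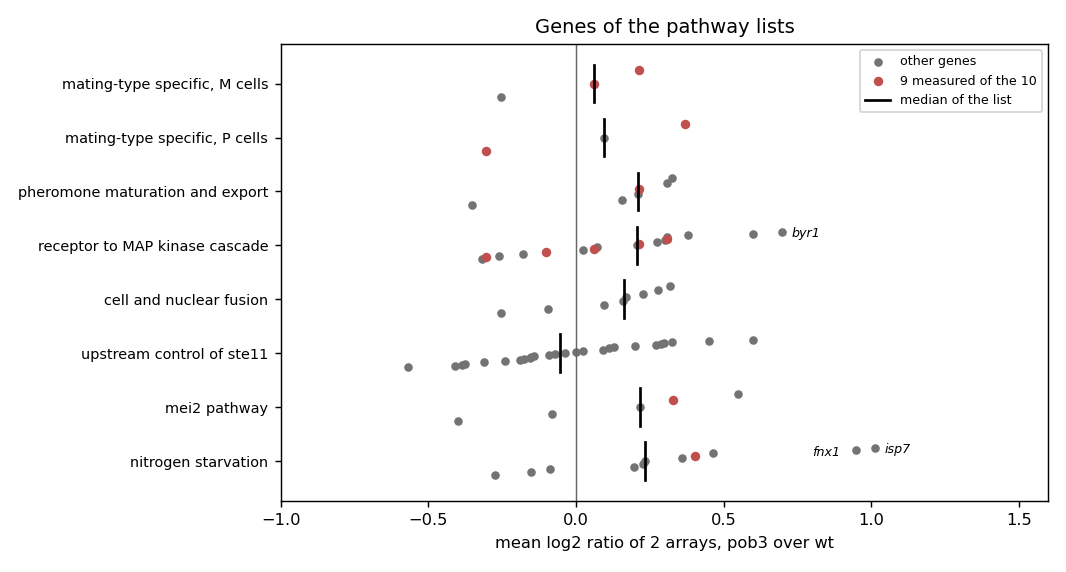
Mean log2 ratio of pob3 over wt (x) of each measured gene in the 8 lists (rows), with the 9 measured pheromone and mating genes in red, others in grey and list medians as black bars. List medians lie between -0.05 and 0.23, and isp7 and fnx1 lie farthest from 0.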

How the data were processed

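The deposited scanner files give intensities, per the file headers the median brightness of each spot and its local background in the channels mutant and wt, with 1 file for each of 2 duplicate spots per array and 5760 spots per file. Dyes come from the labels. Neither labels nor headers name the software that read the spots. The header names no channel for the background SD, which was taken to be that of Cy3. The background mean, also given without a channel, had medians per file of 12.6 to 26.5, near the Cy3 background and far below that of Cy5. The submitters' processed log2 ratios, normalised by the authors with Lowess per the series' design text, hold no row for the 10 genes and were not used.

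Intensities were background-corrected with normexp (offset 50) and normalised by loess per file in limma 3.58.1 (R 4.3.3), where control spots had weight 0. Ratios were turned to pob3 over wt. Spots with a quality mark, or above background in neither channel, were dropped, and the rest averaged to 1 value per array and gene. limma's lmFit and eBayes tested the mean of 2 arrays against 0, with 1 residual and 9.71 prior degrees of freedom, adjusted over 4766 genes. Listed genes were matched through a reference table (assembly ASM294v3), which matched 4649 of 4868 names to 1 locus. Printed are the 10 genes, pob3, and from each list genes past the test, over 2-fold on both arrays, or with the 3 smallest p. Members and lists were chosen with earlier results of these data known. Alternatives are given in the closing section. Promoter and protein sequences were not analysed here.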

Additional observations from a re-analysis of the deposited data

How the results depend on the processing

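Each array's ratio is already a paired difference of the strains, and the main fit of 1 value per array held no further block. As an alternative, the 4 spot files were fitted with the array as a random block, and 29 genes passed the threshold. The lowest adjusted p given next, 0.555 for ste11, came from that limma fit. Under 12 alternatives with a test, 0 of 108 fits of the 9 genes passed the threshold (adjusted p 0.555 to 1.00, limma). Not all of these alternatives could move the means. With no filter on spots, the random block, the intensity trend or saturated spots left out, the means of all 9 genes stayed those of the main fit. Requiring both channels above background changed that of mam2 alone. The mean of mam2 turned to -0.082 without background correction, to -0.026 with median centring, and to -0.032 where both channels had to exceed background or only first spots were used. That of ste6 turned to -0.14 with print-tip loess. Single arrays gave -0.073 to 0.20 for mam2, -0.35 to 0.14 for rgs1 and -0.16 to 0.82 for mei2. Listed genes past the threshold, 0 in the text, were 1 with print-tip loess (fnx1, 1.15, adjusted p = 0.0283 in limma) and 1 with the second spots alone (isp7, 1.29, adjusted p = 0.0203). Among all genes, 25 passed in the text. Median centring left 0 (174 with an unadjusted p under 0.05, limma), and a normexp offset of 10 left 11. Uncorrected background gave 45, print-tip loess 56, the demand for both channels 39, first spots 49, second spots 53, eBayes with a trend on intensity 38 and an adjusted p of 0.10 as limit 52. It was 10 with spots at the scanner maximum left out, which was chosen after seeing the data. The 47 genes over 2-fold on both arrays were 154 at 1.5-fold. Of 112 list medians under alternatives, here with each array alone included, 18 moved by more than the spread between arrays. That spread was the SD of a list's medians on the 2 arrays, and it can be very small. For pheromone maturation and export it was 0.0056, so that a shift from 0.2106 to 0.2025 without background correction was counted. The cause of these shifts was not tested. Of the 10 genes, 8 were unmarked and above background on all spots, and 7 at 3 times the background. The search for a Ste11 motif in promoters was not run.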
